A study of Mus musculus with 15 samples.

Results

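The subunits of the oxidative phosphorylation machinery were followed at the RNA level in MH-S cells, an SV40-transformed mouse alveolar macrophage line. A gene was included when its mouse symbol starts with Nduf (but not Ndufaf), Uqcr, Cox4, Cox5, Cox6, Cox7, Cox8 or Atp5, when it is Sdha, Sdhb, Sdhc or Sdhd, or when it is a protein gene of the mitochondrial genome (symbols starting with mt-), provided that it is protein-coding and reached a mean CPM of 1 over the libraries (CPM, counts scaled to library size by the TMM method). This gave 93 genes among 78317 gene rows, of which 80 are nuclear and 13 mitochondrially encoded, and all 93 were among the 16654 genes tested. Each condition was held for 24 h in 3 wells of the same cell passage. M0 cells received medium only, M1 cells 1 µg/mL lipopolysaccharide (LPS) with 20 ng/mL interferon-γ, and M2 cells 20 ng/mL interleukin-4. CaP cells received 0.1 mg/mL of rod-shaped microparticles built from calcium phosphate nanoparticles, and SiO2 cells the same dose of rods built from silica nanoparticles. Both kinds of rod were pre-crosslinked with alginate and coated with protamine and carboxymethyl chitosan, and each well of a rod group received another particle batch. All 5 groups share the line and its viral transformation, so the wells vary in culture and, for the rods, in particle batch, and not in donor.

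Oxidative phosphorylation runs through complexes I to V of the inner mitochondrial membrane. Complex I takes electrons from NADH and complex II from succinate, complex III passes them from ubiquinol to cytochrome c, complex IV hands them to oxygen, and complex V, the ATP synthase, uses the resulting proton gradient. Most subunits are made from nuclear genes and imported. A few core subunits of complexes I, III, IV and V are encoded by the mitochondrial DNA. This DNA is transcribed as long precursors that are cut into shorter messengers. Macrophages activated with LPS and interferon-γ are known for a shift towards glycolysis, and those activated with interleukin-4 for an oxidative metabolism.

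By complex, the nuclear genes comprise 36 of complex I, 4 of complex II, 8 of complex III, 15 of complex IV and 17 of complex V, and the mitochondrial genome adds 7 to complex I, 1 to complex III, 3 to complex IV and 2 to complex V. The gene just inside the expression limit was Cox4i2, with a mean of 1.08 CPM. Just outside it were Ndufa4l2 with 0.0633 CPM and Cox6b2 with 0.0055 CPM, while Cox7b2, Cox8b and Cox8c had no count in any library. Cyc1 and Cycs, which encode cytochrome c1 and cytochrome c, do not carry the family names and were described separately.

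Library totals lay between 8459643 and 68750050 counts. Of the macrophage markers, 6 or 7 of 10 were at 1 CPM or more in every group, with a summed level of 1410.4 to 3613 CPM. Siglecf, Pparg and Mertk stayed below 1 CPM on average in every group, and Marco reached it in M1 alone (2.18 CPM). Lyz2 averaged 368 CPM in M2 and 1679 to 1847 CPM in the other groups. The epithelial, fibroblast, lymphocyte and neutrophil marker lists had no gene at the level of 1 CPM. Of the 3 endothelial markers, 1 reached it in M1 and in M2, Pecam1 with means of 1.204 and 1.40 CPM, which macrophages can also express. M2 replicate 2 stood apart for the genes described here. Its nuclear members deviated from their means over all libraries by a median of 0.57 on the log2 scale, against 0.25 in CaP replicate 1 and -0.24 to 0.09 in the other libraries. The main M2 results are therefore given with and without this library. As these are bulk libraries, fewer cells of a kind and less RNA per cell cannot be told apart.

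The summed level of the mitochondrially encoded genes was lower in M1 than in M0, and the nuclear sum differed little. The 13 mitochondrial genes together reached 15803, 20715 and 13475 CPM in M0 and 8376, 8887 and 9192 CPM in M1, so that the groups did not overlap. The 80 nuclear genes together reached 32601, 35305 and 35924 CPM in M0 and 32855, 31673 and 30397 CPM in M1. Expressed as mitochondrial per nuclear sum, M0 had 48.2% ± 10.6 (SD, n = 3) and M1 27.9% ± 2.38 (SD, n = 3). With interleukin-4 the ratio was 26.0%, 43.7% and 34.0%, and M2 replicate 2 held the highest sum of any library on both sides, with 51852 CPM nuclear and 22637 CPM mitochondrial. The CaP libraries had ratios of 35.5%, 43.5% and 35.1%, overlapping M0, whereas the SiO2 ratios of 29.6%, 37.3% and 32.4% all lay below the lowest M0 value of 37.5%. No test was made of these sums. They leave out counts assigned to near-identical copies of the mitochondrial and nuclear genes elsewhere in the genome, which are described further on. With these added, a choice made after seeing the data, the mitochondrial sums were 24670 ± 6675 CPM in M0, 13397 ± 999 CPM in M1 and 19537 ± 3388 CPM in CaP (SD, n = 3), and the group means were above 1.5 times those without copies in M1, M2, CaP and SiO2. The ratio was then 66.5% ± 17.2 in M0 and 39.9% ± 4.49 in M1 (SD, n = 3), still without overlap. The SiO2 ratios of 41.7%, 52.9% and 45.8% then overlapped M0, where replicate 3 had 50.7%. The SiO2 mitochondrial sums themselves lay below all M0 sums either way. They were 10149, 12004 and 11047 CPM without copies, against a lowest M0 sum of 13475 CPM. With copies they were 15354, 18020 and 16806.5 CPM, against a lowest M0 sum of 19275 CPM.

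**Figure D1:**
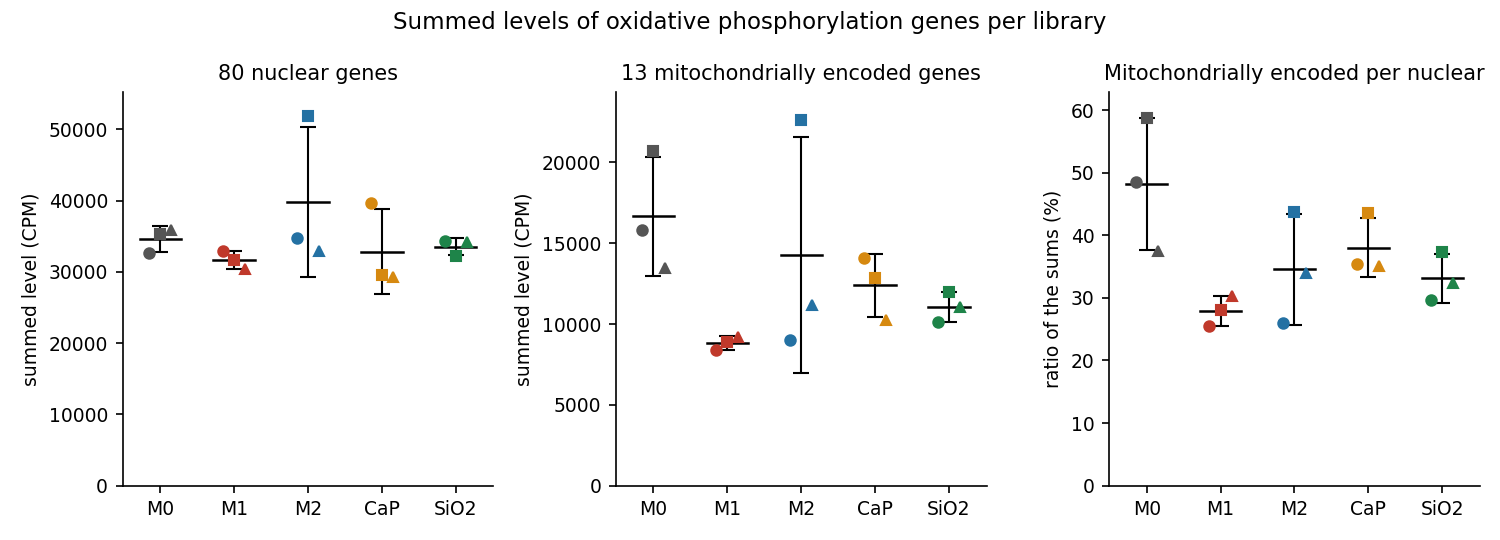
Summed level of the 80 nuclear genes (left, CPM), of the 13 mitochondrially encoded genes (middle, CPM) and the ratio of the sums (right, percent) in each library of the 5 groups. Points are libraries (circle, square and triangle for replicates 1, 2 and 3), horizontal lines the group mean and error bars the SD of 3 libraries; the M1 mitochondrial sums of 8376 to 9192 CPM lie below all 3 M0 sums, and M2 replicate 2 has the highest nuclear and mitochondrial sum of all libraries.

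Levels per length spread widely within the mitochondrial genome. Divided by the length of the principal transcript and averaged over the 15 libraries, mt-Atp6, which encodes subunit a of the ATP synthase, had the highest level with 4099 CPM per kb, followed by mt-Cytb, the cytochrome b of complex III, with 3568 CPM per kb. The complex I genes mt-Nd5 and mt-Nd3 had the lowest, with 76.8 and 113 CPM per kb. Among the nuclear genes, the highest levels per length belonged to Uqcr11, a small complex III subunit (2423 CPM per kb), Cox6b1 (1784 CPM per kb) and Cox4i1 (1699 CPM per kb), both of complex IV.

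The level of 6 mitochondrial genes is shared with nuclear copies of mitochondrial DNA. For each of the 6, 1 such copy lies within a short stretch of chromosome 1 (mt-Co1 has a further one, Gm13340, on chromosome 2), and reads from identical sequence cannot be assigned to either place. Over 681 bases, mt-Co2, which encodes subunit 2 of complex IV, had 0 mismatches to the copy Gm28661. A window of 61 bases from the middle of this alignment is shown for both, because the pair had near-equal levels in the deposited table (GENCODE transcripts, build GRCm38, mt-Co2 at chrM:7323-7383 on the plus strand and Gm28661 at chr1:24615195-24615255 on the minus strand).
mt-Co2: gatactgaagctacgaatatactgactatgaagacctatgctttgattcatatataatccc
Gm28661: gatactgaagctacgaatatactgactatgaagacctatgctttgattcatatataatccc
For mt-Co1, the subunit 1 gene, the copy Gm29216 covers the last part only, and the first bases of the copied stretch differ; capitals mark the bases that differ (mt-Co1 at chrM:6381-6413 on the plus strand, Gm29216 at chr1:24616165-24616197 on the minus strand).
mt-Co1: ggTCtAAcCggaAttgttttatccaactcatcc
Gm29216: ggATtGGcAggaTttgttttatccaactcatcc
In M0, mt-Co2 had 819, 1732 and 738 CPM and Gm28661 had 819, 1733 and 739 CPM. The chromosome 1 copies held 50% of the counts of the pair for mt-Co2, 50.2% for mt-Co3 and 50.1% for mt-Nd4l, 54.5% for mt-Atp6, 37.0% for mt-Co1 and 28.3% for mt-Nd4. How many of the copies' counts come from mitochondrial RNA was not tested, so the levels of these 6 genes are uncertain. Their order per length changed when the counts of the copies were added (mt-Atp6 9004, mt-Cytb 3569 and mt-Co2 2751 CPM per kb). The 3 genes named below as past the test in M1 remained past it with the copies added. No copy at 1 CPM or more was found for the other 7 mitochondrial genes, among them mt-Cytb, at an identity of 97% or more over at least 150 bases. Of the nuclear members, 13 have a copy at 1 CPM or more, for instance Atp5l with Gm10221 (45.6% of the counts of the pair) and Ndufb4 with Ndufb4c (41.1%), and their levels are uncertain in the same way.

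**Figure D2:**
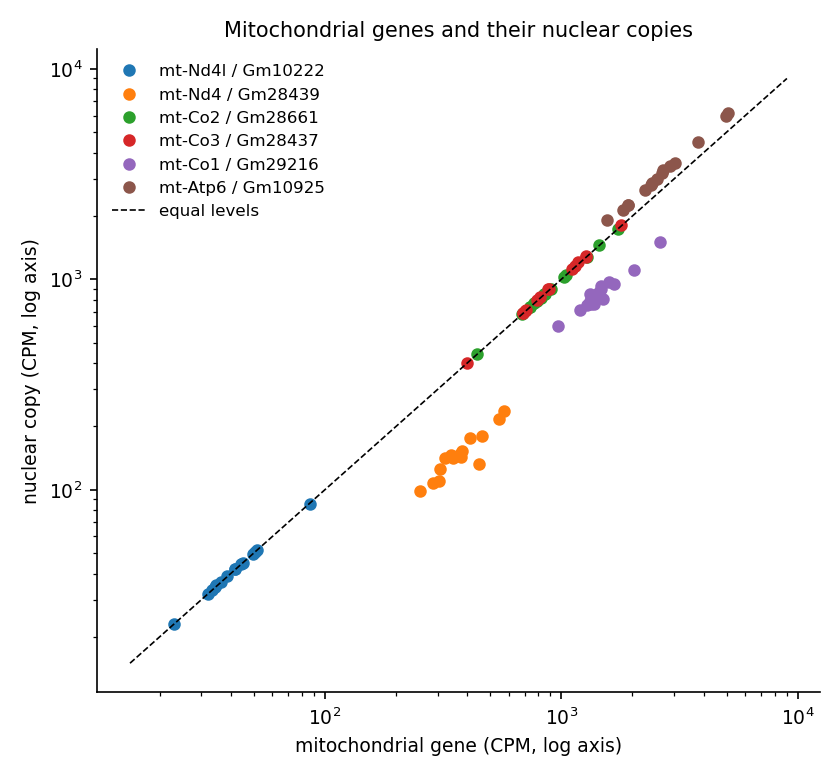
Level of 6 mitochondrial genes (x axis, CPM, log scale) against the level of a nuclear copy on chromosome 1 (y axis, CPM, log scale) in the 15 libraries. Each point is a library and the dashed line marks equal levels; mt-Co2, mt-Co3 and mt-Nd4l lie on it, and the copies of mt-Nd4 and mt-Co1, which cover part of the gene, lie below it.

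M1 polarization was compared with M0 to ask how the classical activation stimulus changes the genes of the respiratory machinery. Of the 13 mitochondrially encoded genes, 3 fell and 0 rose at an adjusted p below 0.05 (edgeR's quasi-likelihood test with Benjamini-Hochberg adjustment over all genes tested), where 14.2% of all tested genes passed, 4.44% with a lower and 9.73% with a higher level. The median log2 fold change was -0.81 over the mitochondrial genes, -0.14 over the nuclear genes and -0.01 over all genes tested. Of the nuclear genes, 2 rose and 1 fell. At an unadjusted p below 0.05, 8 mitochondrial genes had a lower level, and 3 nuclear genes had a higher and 3 a lower level, where 17.1% of all tested genes were higher and 10.6% lower.

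Among the mitochondrial genes, mt-Cytb changed most. It had 7105, 6100.4 and 5678 CPM in M0 and 3026, 2297 and 2198 CPM in M1, a log2 fold change of -1.33 ± 0.39 (SE; 95% interval -2.16 to -0.50; edgeR adjusted p = 0.0346). The groups were separated by a wide gap. Next came mt-Atp8, subunit 8 of the ATP synthase, whose reading frame overlaps mt-Atp6 by 43 bases. Its levels were 459, 888 and 425 CPM in M0 and 256, 289 and 245 CPM in M1 (log2 fold change -1.17 ± 0.34 SE, edgeR adjusted p = 0.0330). M0 replicate 2 was far above the other M0 libraries for this gene, but all M1 libraries lay below all M0 libraries. For mt-Nd4, a membrane subunit of complex I, 574, 545 and 460.4 CPM in M0 stood against 254, 287 and 305 CPM in M1 (log2 fold change -0.90 ± 0.16 SE, edgeR adjusted p = 0.00199).

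The calls were of unequal firmness. Only mt-Nd4 passed in each of the 15 fits that left out 1 library. mt-Cytb missed the threshold without any one of the M0 or M1 libraries, with edgeR adjusted p-values of 0.0897, 0.0663 and 0.0524 without M0 replicates 1, 2 and 3 and of 0.0518, 0.116 and 0.123 without M1 replicates 1, 2 and 3, at log2 fold changes between -1.49 and -1.24. mt-Atp8 missed it without M0 replicate 2 (log2 fold change -0.75, edgeR adjusted p = 0.152) and without M1 replicate 1, 2 or 3 (edgeR adjusted p = 0.0849, 0.0784 and 0.112). Without M2 replicate 2, 7 mitochondrial genes passed, where 3208 of all 17128 genes tested did. Without M0 replicate 3 there were 6, where 1925 of 17118 did. M2 replicate 2 enters this comparison only through the shared spread, the scaling and the choice of genes tested. Leaving it out also moved the median log2 fold change over all genes tested to -0.10. DESeq2, which called 17.4% of all tested genes, called the 3 genes and, in addition, mt-Nd1, mt-Nd4l, mt-Co3 and mt-Atp6.

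The other mitochondrial genes gave smaller or less certain log2 fold changes. For mt-Atp6, the levels were 3029, 5050.1 and 2693 CPM in M0 and 1567, 1908 and 1916 CPM in M1 (log2 fold change -0.999, edgeR adjusted p = 0.0582), without overlap. The complex IV genes mt-Co3 and mt-Co2 gave -0.91 and -0.80 (edgeR adjusted p = 0.0706 and 0.107), but their groups overlapped, since M0 replicate 3 had 688 CPM of mt-Co3 and the M1 libraries reached 708 CPM. The complex I genes mt-Nd4l, mt-Nd1 and mt-Nd3 gave -0.84, -0.81 and -0.76 (edgeR adjusted p = 0.0688, 0.0690 and 0.228), and mt-Nd6 and mt-Nd2 gave -0.43 and -0.37 (edgeR adjusted p = 0.231 and 0.383).

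At the other end stood mt-Co1 and mt-Nd5. mt-Co1, the catalytic subunit gene of complex IV, had 1478, 2022 and 1371 CPM in M0 and 1434, 1472 and 1674 CPM in M1 (log2 fold change -0.09, 95% interval -0.65 to 0.47, edgeR adjusted p = 0.844). Its sign turned to 0.10 without M0 replicate 2. mt-Nd5 was the single mitochondrial gene with a positive estimate, at 157, 166 and 127 CPM in M0 and 171, 184 and 183 CPM in M1 (log2 fold change 0.25, edgeR adjusted p = 0.441). Its M1 libraries lay above its M0 libraries, although the difference did not pass the test. The library preparation kept no strand, so that mt-Nd6, which lies on the opposite strand to the other 12 genes and shares 14 bases with mt-Nd5, cannot be separated from antisense RNA of its neighbours. Outside the protein genes, the large mitochondrial ribosomal RNA mt-Rnr2 fell by 0.59 on the log2 scale in M1 (edgeR adjusted p = 0.0226) and the small one, mt-Rnr1, gave 0.04 (edgeR adjusted p = 0.928). The libraries were primed with oligo-dT, so these counts need not follow the amount of ribosomal RNA. Nuclear copies of mt-Rnr1 and mt-Rnr2 were not searched for.

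**Figure D3:**
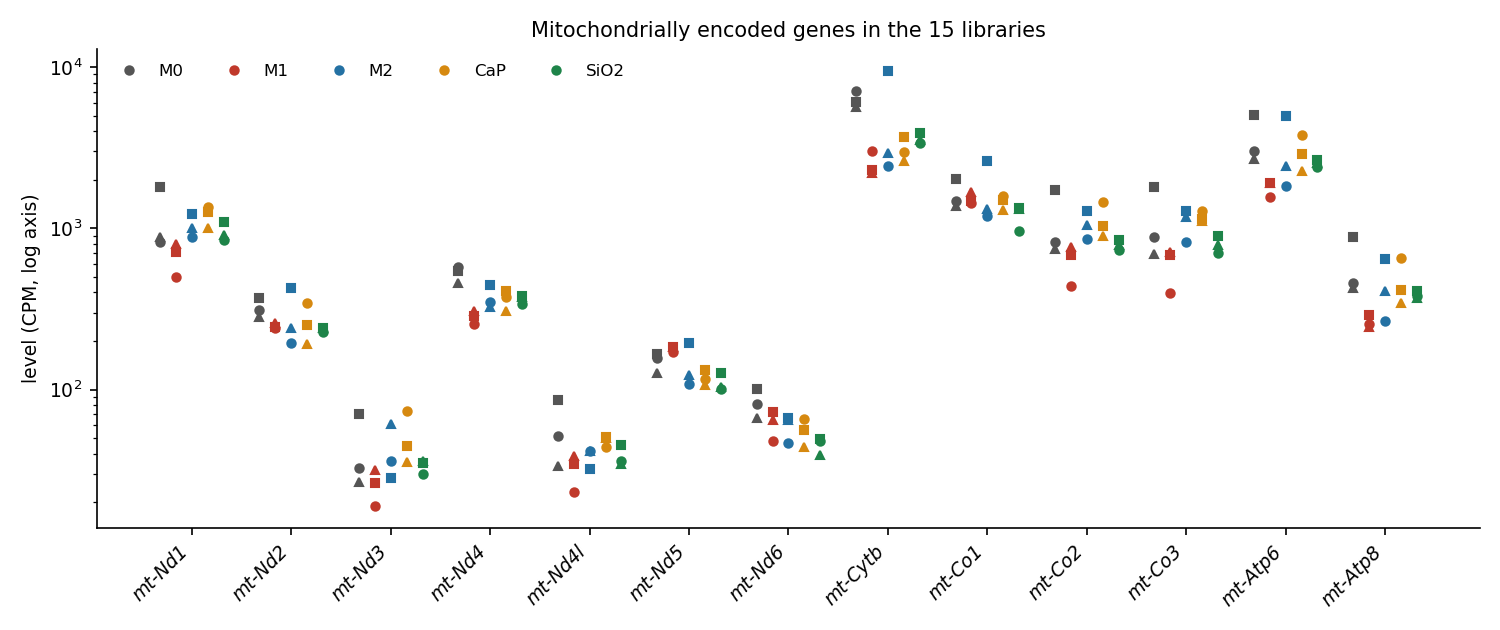
Level of the 13 mitochondrially encoded genes (y axis, CPM, log scale) in each of the 15 libraries, by group from left to right (M0, M1, M2, CaP, SiO2) within each gene. Points are libraries (circle, square and triangle for replicates 1, 2 and 3); mt-Cytb in M1 (2198 to 3026 CPM) lies below M0 (5678 to 7105 CPM), while mt-Nd5 in M1 lies above M0 and M2 replicate 2 reaches 9444 CPM of mt-Cytb.

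The 3 nuclear genes past the test were Cox6a2, Cox4i2 and Atp5s. Cox6a2, the heart and skeletal muscle isoform of complex IV subunit 6A, had 3.66, 3.51 and 3.82 CPM in M0 and 18.0, 17.2 and 16.9 CPM in M1. Replicates were tight in both groups, and the log2 fold change of 2.25 ± 0.25 (SE; 95% interval 1.70 to 2.79) had an edgeR adjusted p of 4.18e-05. It passed in each of the 15 fits with 1 library left out. The gene lies within the span of Itgad, on the opposite strand, and Itgad reached at most 0.329 CPM in any library. The libraries keep no strand, and whether reads of Itgad enter the level of Cox6a2 was not tested. Cox6a1, the common counterpart of Cox6a2, was measured at 563, 865 and 627 CPM in M0 and 520.2, 723 and 735 CPM in M1, with overlapping groups. Per length, Cox6a1 averaged 1361 CPM per kb over the 15 libraries and Cox6a2 9.91 CPM per kb, so that Cox6a2 remained the minor isoform in M1.

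Cox4i2, the isoform of complex IV subunit 4 known from lung and from cells exposed to low oxygen, went the other way. It had 0.843, 1.11 and 1.74 CPM in M0 and 0.172, 0.137 and 0.0972 CPM in M1, which rest on 32, 17 and 15 counts against 2, 2 and 1. The summed counts, 5 in M1 and 64 in M0, gave a ratio of 0.133 of M0 with a 95% interval of 0.0418 to 0.327 (exact, counting error only), and the fitted log2 fold change was -2.96 ± 0.56 (SE, edgeR adjusted p = 0.00198). The common isoform Cox4i1 had 1108, 1431 and 1338 CPM in M0 and 1147, 1213 and 1124 CPM in M1 (log2 fold change -0.15, edgeR adjusted p = 0.580).

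Atp5s, which encodes a small factor associated with the ATP synthase (factor B), rose from 12.0, 13.2 and 14.9 CPM in M0 to 25.3, 19.1 and 19.1 CPM in M1 (log2 fold change 0.67 ± 0.20 SE, edgeR adjusted p = 0.0375). The groups did not overlap, but this call missed the threshold in 11 of the 15 fits with 1 library left out, with its highest edgeR adjusted p, 0.146, without M0 replicate 1, and it was lost when genes with low counts were kept in the test (edgeR adjusted p = 0.237). Cox7a1, the muscle isoform of complex IV subunit 7A, had 9.38, 9.69 and 10.3 CPM in M0 and 4.90, 6.02 and 5.73 CPM in M1 (log2 fold change -0.81, edgeR adjusted p = 0.144). It did not pass against M0, though its groups did not overlap. Its common counterpart Cox7a2 had 596, 633 and 650.1 CPM in M0 and 603, 603 and 542 CPM in M1.

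**Figure D4:**
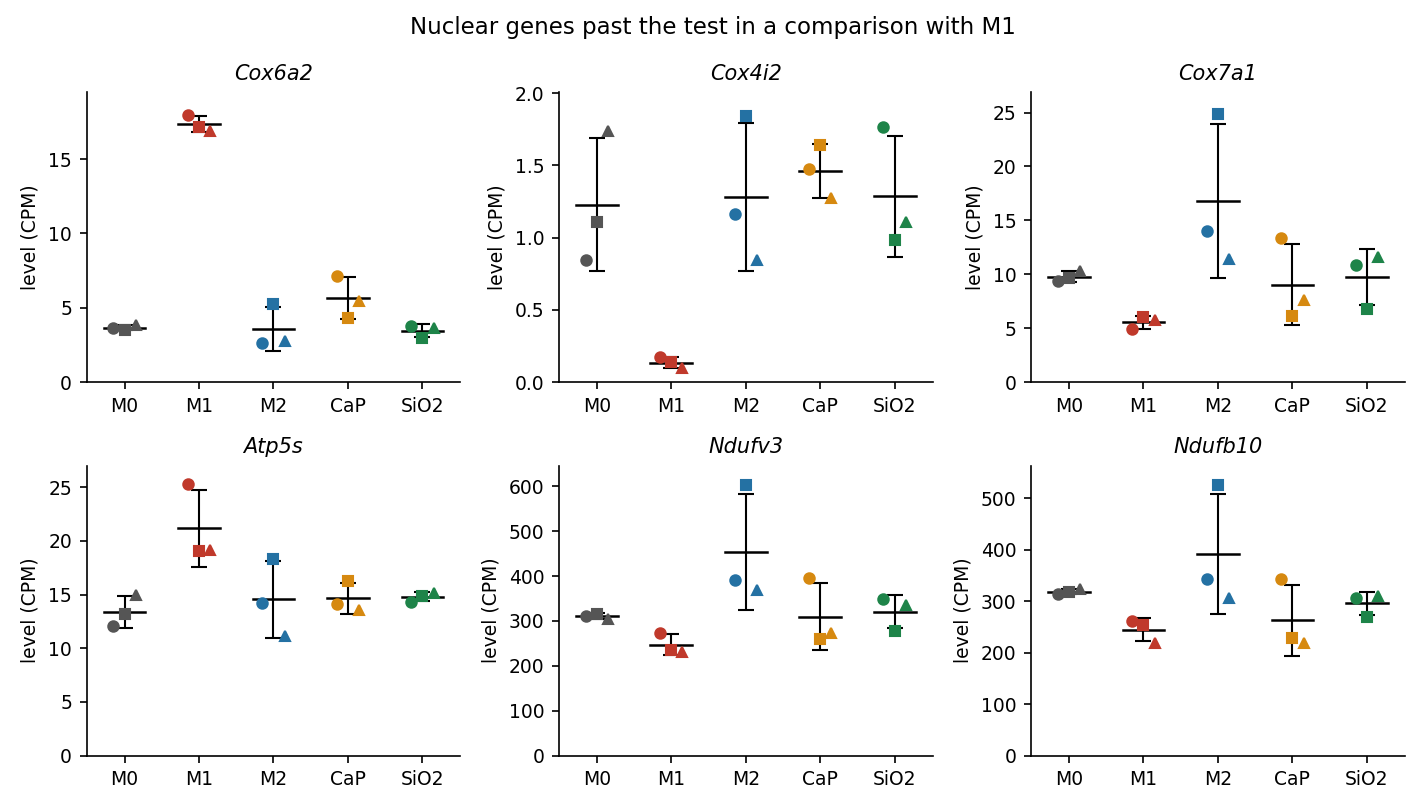
Level (y axis, CPM) of the 6 nuclear genes that passed the test in a comparison of M1 with M0 or M2, in each library of the 5 groups. Points are libraries (circle, square and triangle for replicates 1, 2 and 3), horizontal lines the mean and error bars the SD of 3 libraries; Cox6a2 in M1 (16.9 to 18.0 CPM) lies above and Cox4i2 in M1 (0.0972 to 0.172 CPM) below every other library.

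Of the nuclear genes that did not pass, the largest estimates after that of Cox7a1 were -0.64 for Cox7c, a small complex IV subunit (means of 879 CPM in M0 and 566 CPM in M1, edgeR adjusted p = 0.191), -0.56 for Atp5k of the ATP synthase (edgeR adjusted p = 0.173) and -0.55 for Ndufa7 of complex I (edgeR adjusted p = 0.243). These 3 were chosen after their values were seen, and their M1 libraries all lay below M0. Estimates in M1 were negative for 56 of 80 nuclear genes and positive for 24, against 8393 negative and 8260 positive over all genes tested. For 23 nuclear genes all M1 libraries lay below all M0 libraries, where 12% of all tested genes did so, and for 8 they lay above, where 20.2% of all tested genes did so. The relation of level to transcript length differed between M1 and M0 here. Across the 80 nuclear genes, the rank correlation of length with a library's deviation from the mean over all libraries was 0.427, 0.403 and 0.366 in M1 and -0.283, -0.596 and -0.0149 in M0, so that longer transcripts were relatively higher in M1. In the other groups it ranged from -0.613 to 0.521 and took both signs within each. Over all genes tested with a known length it was 0.109, 0.00482 and 0.0433 in M1 and 0.288, -0.00773 and 0.155 in M0. The part of length in these estimates was not tested. Complex I had 0 of 36 nuclear genes past the test, with a median log2 fold change of -0.17 and 1 gene at an unadjusted p below 0.05, Ndufv1, the flavoprotein that binds NADH (log2 fold change 0.37, edgeR adjusted p = 0.135). DESeq2 also called 0 of these 36.

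Complex II, the succinate dehydrogenase, is encoded by nuclear genes alone, and 0 of its 4 genes passed. The flavoprotein gene Sdha had 128, 183 and 202 CPM in M0 and 214, 213 and 249 CPM in M1 (log2 fold change 0.40, edgeR adjusted p = 0.356). The iron-sulphur subunit gene Sdhb had 990.4, 945 and 1146 CPM in M0 and 1173, 846 and 776 CPM in M1 (log2 fold change -0.14, edgeR adjusted p = 0.762). The groups overlapped for Sdhb, whereas every M1 library lay above every M0 library for Sdha. The membrane anchors Sdhc and Sdhd gave 0.21 and -0.11 (edgeR adjusted p = 0.617 and 0.657). None of the 4 was at an unadjusted p below 0.05, and DESeq2 called 0 of 4.

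In complex III 0 of 8 nuclear genes passed, with 0 at an unadjusted p below 0.05 and 0 by DESeq2. Uqcr11 had 1039.8, 1103 and 1205 CPM in M0 and 835, 857 and 881 CPM in M1 (log2 fold change -0.38, edgeR adjusted p = 0.362). The median over the 8 nuclear genes was -0.02, beside the -1.33 of mt-Cytb, the mitochondrially encoded subunit of the same complex. In complex IV the abundant Cox6b1 had 981, 1191 and 1112 CPM in M0 and 918, 981 and 953 CPM in M1 (log2 fold change -0.20, edgeR adjusted p = 0.5001). The median over the 15 nuclear genes of complex IV was -0.20, and over the 17 of complex V -0.13.

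**Figure D5:**
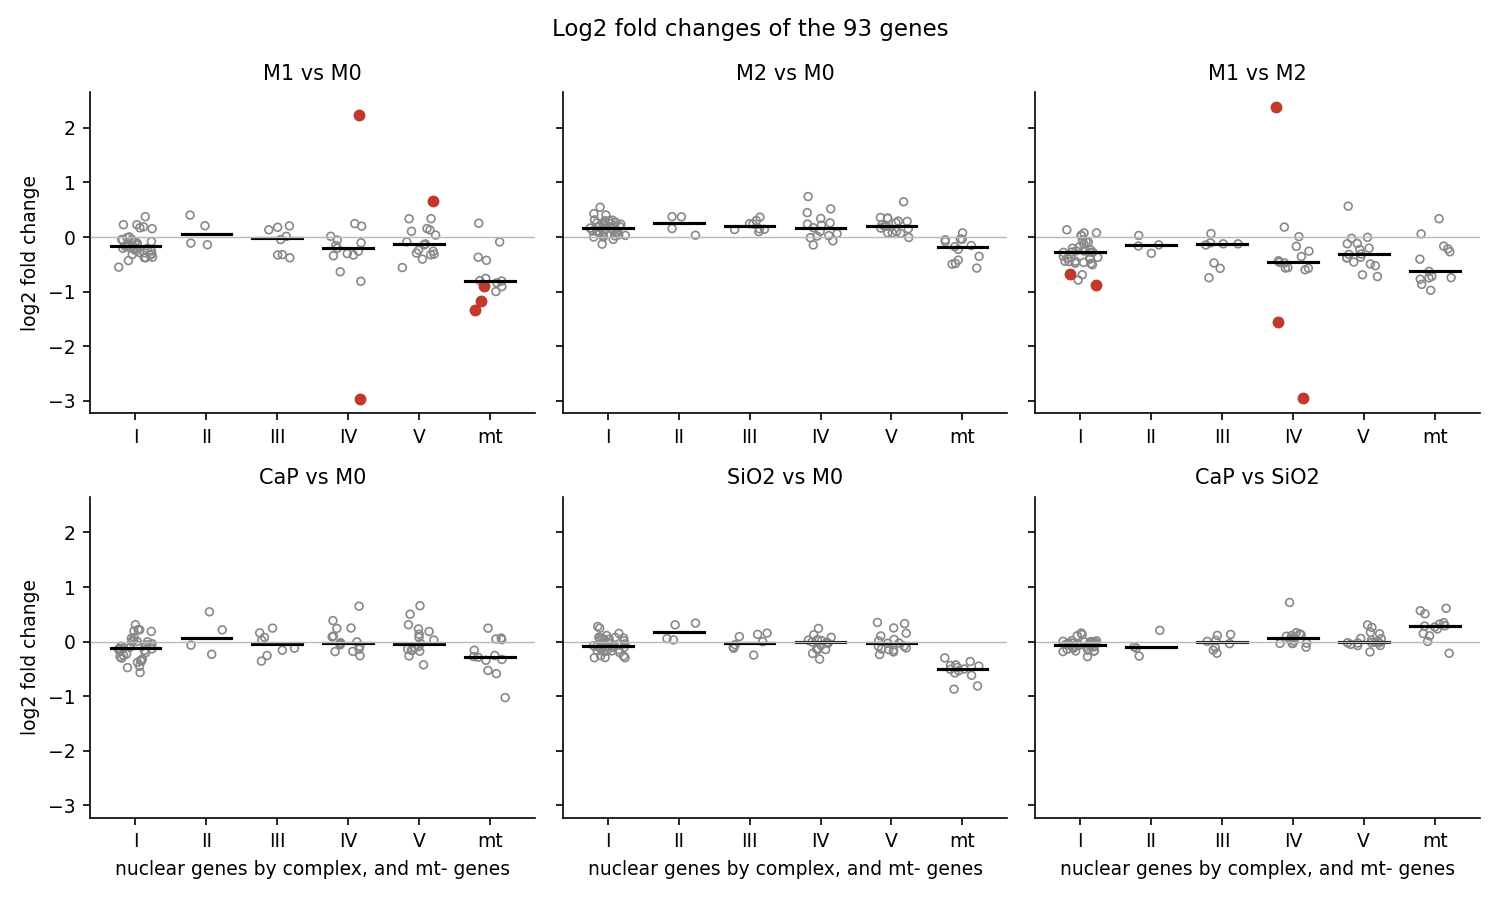
Log2 fold change (y axis) of the 93 genes in each of the 6 comparisons, with the 80 nuclear genes by complex (I to V) and the 13 mitochondrially encoded genes (mt). Filled red points passed the test at an adjusted p below 0.05, open points did not, and horizontal lines are medians; in M1 vs M0 the median is -0.81 for mt and between -0.20 and 0.05 for the nuclear complexes.

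With interleukin-4 alone, 0 of the 80 nuclear and 0 of the 13 mitochondrial genes passed against M0 (edgeR), where 4.13% of all tested genes did. At an unadjusted p below 0.05, 7 nuclear genes had a higher and 0 a lower level, and 0 mitochondrial genes had a higher and 2 a lower level (over all genes tested, 8.26% higher and 8.92% lower), while DESeq2 called 0 of the 93 and 6.14% of all genes. Estimates were positive for 74 of 80 nuclear genes, with a median of 0.18 against 0.07 over all genes tested, and negative for 12 of 13 mitochondrial genes, with a median of -0.18. Without M2 replicate 2, they were positive for 34 of 80 nuclear genes, with a median of -0.04, and negative for 12 of 13 mitochondrial genes, with a median of -0.44.

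These M2 values rest in large part on 1 library. M2 replicate 2 held the highest level within the group for 66 of 80 nuclear and 11 of 13 mitochondrial genes. For mt-Cytb it had 9444 CPM, against 2417 and 2933 CPM in M2 replicates 1 and 3. Without M2 replicate 2, the ratio of the M2 to the M0 mean of the nuclear sum moved from 0.20 to -0.03 on the log2 scale, and that of the mitochondrial sum from -0.22 to -0.72. In the fit without it, mt-Cytb (log2 fold change -1.22, edgeR adjusted p = 0.00191) and mt-Nd4 passed against M0, where 7.95% of all genes tested did. With all libraries mt-Cytb gave -0.35 (edgeR adjusted p = 0.709). What sets this library apart was not tested.

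For 7 nuclear genes all M2 libraries lay above all M0 libraries, where 7.03% of all tested genes did so. Without M2 replicate 2 there were 12 such genes and 23 that lay wholly below M0, where 19.8% and 22.1% of all genes tested in that fit did so. Among the 7 were Ndufv3, a peripheral complex I subunit, with 391, 602 and 368 CPM against 312, 316 and 304 CPM, Cox6a1 with 1015, 977 and 948 CPM, and Cox7a1 with 14.1, 24.9 and 11.4 CPM. None of these 3 passed the test against M0 (edgeR adjusted p = 0.174, 0.161 and 0.260). Cox6a2 stayed at 2.66, 5.26 and 2.78 CPM.

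M1 and M2 were set against each other directly as the opposite ends of polarization, a contrast that uses no M0 library as reference. Of the nuclear genes 1 had a higher and 4 a lower level in M1 at an adjusted p below 0.05, where 16.2% of all tested genes passed, 10.7% with a higher and 5.55% with a lower level. Of the mitochondrial genes 0 passed (edgeR), with 7 lower at an unadjusted p below 0.05, where 12.5% of all tested genes were lower. DESeq2 called 1 of the 7, mt-Co3, and 17.8% of all genes. Cox6a2 was higher in M1 (log2 fold change 2.39 ± 0.26 SE, edgeR adjusted p = 1.91e-05) and Cox4i2 lower, with 5 counts in M1 and 90 in M2 (log2 fold change -2.95 ± 0.55 SE, edgeR adjusted p = 0.00150).

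Cox7a1, with 4.90, 6.02 and 5.73 CPM in M1 and 14.1, 24.9 and 11.4 CPM in M2, was lower in M1 by a log2 fold change of -1.55 ± 0.35 (SE, edgeR adjusted p = 0.00697). Ndufv3 had 273, 235 and 232 CPM in M1 (log2 fold change -0.88 ± 0.20 SE, edgeR adjusted p = 0.00953). Ndufb10, an accessory membrane-arm subunit of complex I, had 262, 254 and 219 CPM in M1 and 343, 526 and 307 CPM in M2 (log2 fold change -0.68 ± 0.21 SE, edgeR adjusted p = 0.0424). Cox6a2, Cox4i2, Cox7a1 and Ndufv3 passed in all 15 fits that left out 1 library, and without M2 replicate 2 Ndufv3, Cox7a1, Cox6a2 and Cox4i2 gave -0.72, -1.29, 2.54 and -2.85. The call of Ndufb10 was lost in 10 of the 15, with -0.51 and an edgeR adjusted p of 0.0628 without M2 replicate 2. Estimates were negative for 69 of 80 nuclear genes, with a median of -0.30 against -0.04 over all genes tested, and for 25 all M1 libraries lay below all M2 libraries, where 11.2% of all tested genes did so. Without M2 replicate 2, estimates were negative for 59 of 80 with a median of -0.15, and 30 lay wholly below M2, where 28.5% of all genes tested in that fit did so. The number of nuclear calls was sensitive to libraries. It was 10 without M2 replicate 3, where 1764 of all 17044 genes tested passed. Without CaP replicate 1 it was 15, where 3185 of 17066 passed. DESeq2 called 11 nuclear genes, and 17.8% of all genes. CaP replicate 1 enters this contrast only through the shared spread, the scaling and the choice of genes tested. Mitochondrial calls numbered 3 without M0 replicate 2 (2757 of all 17087 genes tested passed) and 2 without M2 replicate 1 (2108 of 17129). There was 1 call each without M0 replicate 3 (2735 of 17118) and without M2 replicate 2 (4324 of 17128). The last was mt-Nd5, with a higher level in M1.

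To show the isoform genes in their sequence context, the promoters of 66 of the 80 nuclear genes were matched in a RefSeq table (build GRCm38.p6, 250 bases before to 50 bases after the transcription start). NRF1 and the ETS family factor GABP are textbook regulators of nuclear respiratory genes. The NRF1 core, searched as GCGCA followed directly by its reverse complement TGCGC, was present in 5 of the 66 (7.58%) and in 1.07% of all 27025 genes with a promoter in the table. The ETS core CCGGAAG, searched on both strands as CCGGAAG and CTTCCGG, was present in 16 of the 66 (24.2%) and in 9.93% of all genes. The promoters of 1 common and 1 tissue isoform of complex IV subunits are printed, since the tissue isoform Cox7a1 differed between M1 and M2, and Cox6a1 is the common counterpart of Cox6a2. Capitals mark the motifs, and both sequences read from 5′ to 3′ on the strand of the gene (Cox6a1 at chr5:115348909-115349208 on the minus strand, Cox7a1 at chr7:30183921-30184220 on the plus strand).
Cox6a1: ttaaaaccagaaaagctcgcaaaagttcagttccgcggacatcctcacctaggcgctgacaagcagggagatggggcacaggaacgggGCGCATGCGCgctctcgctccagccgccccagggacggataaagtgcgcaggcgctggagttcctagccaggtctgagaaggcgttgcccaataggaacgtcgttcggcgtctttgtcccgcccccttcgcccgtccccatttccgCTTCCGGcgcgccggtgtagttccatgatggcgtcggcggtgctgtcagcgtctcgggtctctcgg
Cox7a1: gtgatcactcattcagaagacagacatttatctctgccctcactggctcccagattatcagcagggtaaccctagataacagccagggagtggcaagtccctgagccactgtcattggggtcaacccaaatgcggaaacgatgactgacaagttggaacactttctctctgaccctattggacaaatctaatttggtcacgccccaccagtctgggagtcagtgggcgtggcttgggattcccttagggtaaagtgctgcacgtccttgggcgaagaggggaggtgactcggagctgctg
The Cox6a1 promoter holds both motifs and has a GC content of 63.0%, and the Cox7a1 promoter holds neither of these letter strings and has a GC content of 53.0%. The promoter of Cox7a2, the common counterpart of Cox7a1, also holds neither, so the printed pair does not stand for common and tissue isoforms in general. Cox6a2 and Cox4i2 were not among the 66 genes with a matched promoter. A match is a description of the sequence and no evidence of binding in these cells.

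The rods were compared with M0 to ask what the particle materials change without added cytokine. With CaP rods 0 of 80 nuclear and 0 of 13 mitochondrial genes passed against M0 (edgeR), where 0.654% of all tested genes did. At an unadjusted p below 0.05, 3 nuclear genes had a higher and 0 a lower level, 3 mitochondrial genes had a lower and 0 a higher level, where 7.61% of all tested genes were higher and 8.15% lower. DESeq2, which called 2.82% of all genes, called 0 nuclear genes and 1 mitochondrial gene, mt-Nd4, with a lower level. The 3 nuclear genes were Cox6a2 (7.14, 4.34 and 5.46 CPM, log2 fold change 0.65, edgeR adjusted p = 0.243), Sdhc (169, 242 and 290.4 CPM, 0.55, edgeR adjusted p = 0.316) and Atp5b, the catalytic β subunit of the ATP synthase (0.50, edgeR adjusted p = 0.2801).

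Among the mitochondrial genes, mt-Cytb gave the largest estimate in this comparison. In CaP cells it had 2974, 3694 and 2611 CPM, all below the lowest M0 value of 5678 CPM (log2 fold change -1.03 ± 0.38 SE, 95% interval -1.85 to -0.20, edgeR adjusted p = 0.232). When only the 9 libraries of M0, CaP and SiO2 were fitted it passed (edgeR adjusted p = 0.0322), and likewise in the 15-library model without M2 replicate 2 (edgeR adjusted p = 0.00754). mt-Nd4 had 377, 411 and 308 CPM (log2 fold change -0.53, edgeR adjusted p = 0.149), and mt-Nd6 66.0, 55.8 and 44.0 CPM (log2 fold change -0.59, edgeR adjusted p = 0.232). These 3 genes lay below M0 in every CaP library, where 10.1% of all tested genes did so. By contrast, mt-Nd1 had 1352, 1263 and 1011 CPM in CaP cells and 823, 1794 and 887 CPM in M0, mt-Co3 had 1271, 1144 and 1106 CPM against 882, 1793 and 688 CPM, and both groups overlapped. The median over the 13 mitochondrial genes was -0.27, with 4 positive and 9 negative estimates, and over the nuclear genes -0.07.

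SiO2 rods gave 0 calls among the 80 nuclear and 0 among the 13 mitochondrial genes (edgeR), where 0.264% of all tested genes passed. At an unadjusted p below 0.05 there were 0 nuclear genes and 3 mitochondrial genes with a lower level, where 4.29% of all tested genes were lower, and DESeq2 called 0 of the 93 and 0.817% of all genes. Estimates were negative for all 13 mitochondrial genes in this comparison, from -0.87 to -0.30 with a median of -0.50, and for 46 of 80 nuclear genes, with a median of -0.04. For 8 of the 13 mitochondrial genes all SiO2 libraries lay below all M0 libraries, where 8.87% of all tested genes did so. All comparisons with M0 use the same 3 M0 libraries, so their values are not independent of each other.

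Among the 93 genes, the lowest p-value in the SiO2 comparison belonged to mt-Nd6. It had 47.9, 49.1 and 39.2 CPM against 81.7, 100.3 and 66.6 CPM in M0 (log2 fold change -0.87 ± 0.22 SE, edgeR adjusted p = 0.213). The genes mt-Nd4 (341, 379.6 and 372 CPM) and mt-Nd5 (101, 126 and 103 CPM) gave -0.53 and -0.45 (edgeR adjusted p = 0.315 and 0.598). mt-Cytb had 3360.3, 3886 and 3509 CPM, all below M0 (log2 fold change -0.81 ± 0.38 SE, 95% interval -1.63 to 0.01, edgeR adjusted p = 0.620). In complex II the 4 estimates lay between 0.03 and 0.34, and none passed.

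Calcium phosphate was compared directly with silica at the same dose and time, the rods sharing alginate and coating and differing in the mineral core. Because the materials differ in density, the same mass per volume holds different numbers of rods, so that material and rods per cell cannot be told apart. Of the 93 genes 0 passed (edgeR), where 0.018% of all tested genes did, 1 nuclear and 0 mitochondrial genes were at an unadjusted p below 0.05 against 1.66% of all genes, and DESeq2 called 0 of the 93 and 0.102% of all genes. The nuclear gene was Cox6a2 (7.14, 4.34 and 5.46 CPM with CaP, 3.77, 2.95 and 3.65 CPM with SiO2, log2 fold change 0.72, 95% interval 0.19 to 1.25, edgeR adjusted p = 1.00). Its groups did not overlap. For mt-Cytb the difference was -0.21 with a 95% interval of -1.03 to 0.60 (edgeR adjusted p = 1.00). Estimates were positive for 12 of 13 mitochondrial genes, with a median of 0.29, and the median over the nuclear genes was -0.03.

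Genes that build and feed the complexes were followed in fixed lists, to be read against the 14.2% of all tested genes that passed in M1 against M0. By direction, 9.73% of all tested genes rose and 4.44% fell, which applies to each list below. Of 49 tested assembly factors, 5 rose and 0 fell in M1 against M0 (edgeR adjusted p below 0.05). They include Cox18, which inserts a complex IV core subunit into the membrane, with 7.80, 14.05 and 8.69 CPM in M0 and 17.9, 24.1 and 26.4 CPM in M1 (log2 fold change 1.17, edgeR adjusted p = 0.00525). The other 4 were the complex I factors Ecsit (0.77), Ndufaf3 (0.76) and Ndufaf5 (0.64) and the complex II factor Sdhaf1 (0.52), each given as log2 fold change with edgeR adjusted p-values of 0.0377, 0.0263, 0.0286 and 0.0483. Of 41 tested genes for expression of the mitochondrial genome, 2 rose and 0 fell, namely Fastkd1, of a family of mitochondrial RNA-binding proteins (log2 fold change 0.92, edgeR adjusted p = 0.0163), and Taco1, a translational activator of mt-Co1 (0.65, edgeR adjusted p = 0.0431). Of 78 mitochondrial ribosomal protein genes 1 rose, Mrpl52, from 51.7 CPM on average to 141 CPM (log2 fold change 1.45, edgeR adjusted p = 0.00158). The medians over these 3 lists were 0.03, 0.13 and 0.02.

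Among 25 tested genes of electron carriers, 5 rose and 0 fell in M1. Cyc1 had 389.6, 462 and 505 CPM in M0 and 740.3, 725 and 689.5 CPM in M1 (log2 fold change 0.67, edgeR adjusted p = 0.00471). It is the one abundant gene of complex III itself that rose, and it stands outside the family names above. Coq10b, a coenzyme Q binding protein, went from 2.87, 3.32 and 5.33 CPM to 12.98, 11.3 and 10.3 CPM (log2 fold change 1.66, edgeR adjusted p = 0.000575), and Sqor, which passes electrons from sulphide to ubiquinone, from 14.9, 21.2 and 20.7 CPM to 42.4, 60.0 and 67.4 CPM (1.59, edgeR adjusted p = 0.000177). Coq5 and Coq10a gave 0.62 and 0.69 (edgeR adjusted p = 0.0222 and 0.0492). The median of this list was 0.28.

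Of 15 tested regulators of mitochondrial biogenesis and metabolism, 5 rose and 1 fell in M1. The transcription factor Myc had 2.37, 2.86 and 2.55 CPM in M0 and 17.6, 22.9 and 27.9 CPM in M1 (log2 fold change 3.15, edgeR adjusted p = 3.03e-05). The others that rose were Sirt1 (1.30), the kinase subunit Prkaa1 (0.88), Hif1a (0.81) and the GABP subunit Gabpb1 (0.80), with edgeR adjusted p-values of 0.0191, 0.0124, 0.0398 and 0.0145. Nrip1, a corepressor of oxidative metabolism genes, fell by 1.31 on the log2 scale (edgeR adjusted p = 0.00550). Against M2, where 10.7% of all tested genes were higher and 5.55% lower in M1, M1 had 4 higher and 2 lower assembly genes, among them Cox17, a copper chaperone of complex IV, with a log2 fold change of 0.85 (edgeR adjusted p = 0.0191) and Cox20 with -1.59 (edgeR adjusted p = 0.0263), 5 higher biogenesis regulators and 3 higher carrier genes. In the same comparison Fastkd1 (1.19) was the 1 gene past the test for expression of the mitochondrial genome, and of the mitochondrial ribosomal genes Mrpl52 was higher (1.52) and Mrps25 lower (-0.71), each given as log2 fold change with edgeR adjusted p-values of 0.00298, 0.000865 and 0.00538. In M2 against M0 the mitochondrial ribosomal gene Mrps25 alone passed among these lists (log2 fold change 0.74, edgeR adjusted p = 0.0141), where 4.13% of all tested genes passed. In CaP against M0, SiO2 against M0 and CaP against SiO2, 0 genes of any list passed by edgeR, where 0.654%, 0.264% and 0.018% of all tested genes did.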

How the data were processed

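RNA was measured in 15 libraries, 3 wells for each of 5 groups, by Smart-seq2 (oligo-dT primed, full-length, without strand or molecular identifiers) from bulk RNA of MH-S cells. The deposited table holds estimated counts per Ensembl gene made by the authors with nf-core/rnaseq (STAR and Salmon, mouse build GRCm39); they need not be whole and were rounded. Nothing says that the wells are independent cultures beyond the particle batches, so p-values measure the spread between these wells. Symbols, gene types and transcript lengths came from GENCODE M21 (build GRCm38) by gene ID (51487 of 78317 rows had a symbol); lengths are those of the principal transcript.

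Libraries were scaled with TMM, and 16654 genes that passed edgeR's expression filter were fitted over all 15 libraries with the quasi-likelihood test of edgeR 4.0.16 (R 4.3.3). Adjusted p is Benjamini-Hochberg over all of them, with a threshold of 0.05; CPM are TMM-scaled. The stricter rule of the study also asks for an absolute log2 fold change above 0.5. Alternatives were DESeq2 1.42.0, its size factors, other count filters, scaling without mitochondrial genes, a replicate block, the 9 rod and M0 libraries, and each library left out; the legacy quasi-likelihood and the addition of near-identical copies (blastn 2.17.0) were chosen after seeing the data. The pipeline was tested on simulated counts. Intervals on counts cover counting error only. Named genes were all mitochondrial and complex II genes, members past the test in any comparison, tissue isoforms with their counterparts, the 3 nuclear genes with the highest level per length, and list genes past the test; Ndufv1, Atp5b, Cox7c, Atp5k, Ndufa7 and the copies were chosen after their values were seen. The members and lists were chosen with earlier results of these data known.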

Additional observations from a re-analysis of the deposited data

How the results depend on the processing

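With DESeq2 in place of edgeR, 7 mitochondrial genes passed in M1 against M0, where 17.4% of all genes did. In M1 against M2, 11 nuclear genes and 1 mitochondrial gene passed, where 17.8% did. In CaP against M0, 1 mitochondrial gene passed, where 2.82% did. Without a filter on low counts the numbers were 8 mitochondrial genes in M1 against M0, 13 nuclear and 6 mitochondrial genes in M1 against M2, and 1 mitochondrial gene each in CaP and SiO2 against M0, mt-Cytb in both. With only the 9 libraries of M0, CaP and SiO2, 1 mitochondrial gene passed in CaP against M0. When 1 library was left out, the count of mitochondrial genes ranged from 1 to 7 in M1 against M0, from 0 to 2 in M2 against M0, from 0 to 3 in M1 against M2 and from 0 to 1 in CaP against M0, and that of nuclear genes from 4 to 15 in M1 against M2. Between 17033 and 17162 genes were tested in these fits. Of them, 1511 to 3208 passed in M1 against M0 and 316 to 1362 in M2 against M0. In M1 against M2, 1764 to 4324 passed, and in CaP against M0, 30 to 324. The log2 fold change of mt-Co1 in M1 against M0 ranged from -0.20 to 0.10, turning positive without M0 replicate 2. The cause of these shifts was not tested. DESeq2 size factors, leaving the mitochondrial genes out of the scaling, the legacy quasi-likelihood, adding the near-identical copies, and the additional requirement of an absolute log2 fold change above 0.5 moved no count of calls by over 1.5 times. With the copies added, Cox5b and Uqcr11 also passed in M1 against M2, where 2708 of all 16628 genes tested did. Both were lower in M1 (log2 fold change -0.65 and -0.78, edgeR adjusted p = 0.0311 and 0.0479). Under a minimum of 10 counts in every library Cox4i2 was not tested.

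Same-numbered libraries of different groups deviated together in some cases only. Of 30 such pairs, 13 had a correlation above 0.1, in a range of -0.742 to 0.689, and 5 of 15 libraries were closest to their own number. M0 with CaP, M0 with SiO2 and CaP with SiO2 gave 0.544, 0.476 and 0.381 in replicate 1. In replicate 2 these pairs gave -0.247, -0.275 and 0.689, and in replicate 3 -0.0284, -0.596 and -0.197. With the replicate number as a block, Atp5s in M1 against M0 (0.67, edgeR adjusted p = 0.0578) and Ndufb10 in M1 against M2 (-0.67, edgeR adjusted p = 0.0575) missed the threshold, leaving 2 nuclear calls in the first and 4 in the second comparison.

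With 3 wells a group the power is limited. In counts simulated for M1 against M0, 200 genes among 16402 were changed, all with a mean of 10 CPM or more. The test recovered 91% of genes changed 4-fold and 20% of those changed 2-fold. In the real comparison 14.2% of all tested genes passed, so the adjusted threshold was not the same. The recovery of the genes described here, some below 10 CPM, was not tested.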

Other observations

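The share of mt-Cytb in the mitochondrial sum varied between libraries of the same group. In M0 it was 44.96%, 29.4% and 42.1%, in M1 36.1%, 25.8% and 23.9%, and in M2 26.8%, 41.7% and 26.2%. The CaP libraries had 21.1%, 28.7% and 25.5%, and the SiO2 libraries 33.1%, 32.4% and 31.8%. M0 replicate 2, which held the highest level within its group for 11 of 13 mitochondrial genes, had the lowest share of mt-Cytb among the M0 libraries. These shares leave out counts assigned to near-identical copies, which were found for other mitochondrial genes but not for mt-Cytb. With the copies added they were 31.4%, 19.0% and 29.5% in M0, 24.6%, 16.7% and 15.5% in M1, 17.3%, 28.6% and 16.6% in M2, 13.04%, 18.7% and 16.2% in CaP, and 21.9%, 21.6% and 20.9% in SiO2.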
